A study of Mus musculus with 4 samples.

Results

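The genes described here are Tpm3-rs7, 1700016D06Rik, A630089N07Rik and Fam102b, 4 of the 32285 genes counted. They were chosen because their levels in the Mll3SI and the Mll3/4SI library differed from control in the same direction. Their levels in those libraries are therefore a description, given without a test. All 4 symbols were found, each once, in the gene rows of the 4 libraries.

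RNA and 15 barcoded antibodies were counted in single bone marrow cells sorted as CD45.2+Kit+ from mice 10 weeks after transplantation, by 10x Genomics 3′ sequencing. Each of the 4 groups (control, Mll4SI, Mll3SI, Mll3/4SI) was 1 library, so there was no replicate and no p-value. The labels do not spell out SI, and give no allele, Cre line, strain, sex, animal number or batch, so any of these cannot be told apart from the group. Intervals below are 95% and cover counting error only.

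MLL3 and MLL4, encoded by Kmt2c and Kmt2d, are methyltransferases of histone H3 lysine 4 that act mainly at enhancers, the distant elements that raise transcription of their target genes. Both work in complexes with shared subunits such as KDM6A and PAXIP1, and both have been studied as regulators of blood stem cells. The genes followed here are of mixed kind. Tpm3-rs7 is a retrogene, an intron-free copy of Tpm3 that arose from its mRNA. Tpm3 encodes a tropomyosin, a rod-shaped protein that lies along actin filaments. Fam102b is the paralog of Fam102a, which takes part in signalling from RANK during osteoclast formation. 1700016D06Rik and A630089N07Rik carry clone names, and no role is stated for them here.

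Depth and cell types bear on every value. After filtering, 6743 control, 8023 Mll3SI, 10186 Mll4SI and 6755 Mll3/4SI cells were kept, with medians of 12800 to 19185 UMIs (unique molecular identifiers, each standing for 1 captured molecule) per cell. Pairs of libraries shared 11 to 21 cell barcodes. Levels are UMIs scaled to a total of 1000000 in the library or cell class (CPM, UMIs per 1000000), and ratios are log2 ratios of CPM + 1, which understate changes of genes of low CPM. Counts at the 3′ end were not scaled for transcript length, and levels are compared within a gene, or between Tpm3 and its copy. Reads in introns, if counted, could not be told apart from the others. Joint clustering with the 4 genes left out gave 27 clusters. From their markers, 48.1% to 72.0% of cells were granulocyte-like, 5.77% to 10.9% HSC/MPP-like (stem and multipotent progenitor markers) and 4.71% to 13.3% monocyte-like. Unnamed clusters held 11.7% to 15.7% of cells in 3 libraries and 34.3% in Mll3/4SI. The clusters within a class also differed by library. Granulocyte-like cells of Mll4SI sat mostly in clusters 1 and 2, and 1080 of the 3247 of Mll3/4SI sat in cluster 12, which held no control cell. HSC/MPP-like cells of Mll3/4SI sat mostly in cluster 17, which also carried 5 megakaryocyte markers.

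The targeted genes did not mark the groups by their UMI counts. Kmt2c was at 129.6 CPM in control, 147.4 in Mll4SI, 110.3 in Mll3SI and 122.9 in Mll3/4SI. Kmt2d was at 41.3, 35.1, 38.0 and 33.3 CPM in the same order. A 3′ count checks nothing if the altered stretch lies elsewhere in the gene, and the labels do not place it. The libraries also differed in sex-linked RNA. Xist was at 0.0315 CPM in control and 0.194 in Mll3SI, against 1148 in Mll4SI and 1360 in Mll3/4SI, while Eif2s3y was at 63.3 and 62.0 CPM in the former and at 0 in the latter. The division of the member genes, with control and Mll4SI on one side, runs across this division.

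Tpm3-rs7 lies on chr14:113314608-113316754 of GRCm38, on the plus strand, as a single exon that GENCODE M21 labels a protein-coding retrogene and the RefSeq table a pseudogene. Its parent Tpm3 lies on another chromosome, at chr3:90072649-90100902. The transcripts Tpm3-rs7-201 and Tpm3-201 matched at 99.1% of 2108 aligned columns, with 13 mismatched bases and 6 gap columns. Within the 744 coding bases of the copy, 741 matched. The following stretch, coding bases 8 to 127 of both transcripts (chr14:113314683-113314802 for the copy), is shown because it holds all 3 of those coding differences. Within the aligned part of the transcripts, a read is told apart only where it covers a base that differs. Capitals mark the bases that differ, and all other letters are identical.
Tpm3-rs7: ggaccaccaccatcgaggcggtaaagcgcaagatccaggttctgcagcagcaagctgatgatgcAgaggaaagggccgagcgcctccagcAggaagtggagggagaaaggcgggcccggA
Tpm3: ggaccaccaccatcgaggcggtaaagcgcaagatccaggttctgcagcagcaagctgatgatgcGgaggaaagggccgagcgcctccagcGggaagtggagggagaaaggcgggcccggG

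Windows of 90 bases, a usual read length of this chemistry, were taken from spliced transcripts, so introns were not searched. Of the 2058 windows of Tpm3-rs7, 1100 (53.5%) also occurred letter for letter in Tpm3. Among the windows starting in the last 500 bases, where 3′ reads concentrate, 118 of 411 (28.7%) did. The aligned part of those last bases held 7 mismatches in 459 bases. The other members had no such twin. 1700016D06Rik and Fam102b shared no window with another gene, and A630089N07Rik shared 13 of 4329 with Gm48054, a gene not counted in these files. Counts of Tpm3-rs7 and Tpm3 are thus uncertain one against the other, and their sum is given beside them.

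Tpm3-rs7 was nearly missing from the Mll3SI and Mll3/4SI libraries. Its level was 198.1 CPM in control (25137 UMIs, interval 195.7 to 200.6), 114.7 in Mll4SI (16834 UMIs, 112.9 to 116.4), 6.16 in Mll3SI (761 UMIs, 5.73 to 6.62) and 5.51 in Mll3/4SI (783 UMIs, 5.13 to 5.91). Control was thus 32.1-fold above Mll3SI and 36.0-fold above Mll3/4SI, and Mll4SI stood between, at 57.9% of control. The log2 ratios to control were -0.78 in Mll4SI, -4.80 in Mll3SI and -4.93 in Mll3/4SI. Against Mll4SI, a library that does not serve as the shared control, they were -4.01 in Mll3SI and -4.15 in Mll3/4SI.

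1700016D06Rik followed the same division of the libraries, without the intermediate level. This gene lies at chr8:11654924-11701063 on the minus strand and is annotated as protein-coding and as the host of a non-coding RNA. Its level was 39.7 CPM in control (38.6 to 40.8), 35.0 in Mll4SI (34.1 to 36.0), 3.07 in Mll3SI (2.77 to 3.39) and 2.05 in Mll3/4SI (1.82 to 2.30). The log2 ratios to control were -0.17 in Mll4SI, -3.32 in Mll3SI and -3.74 in Mll3/4SI. Mll4SI had 88.3% of the control level, Mll3SI 7.74% and Mll3/4SI 5.16%.

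A630089N07Rik was lower in the same libraries by a smaller factor and was still read in many cells. It lies at chr16:98001310-98082450 on the minus strand, protein-coding in GENCODE and a long non-coding RNA in the RefSeq table. Its level was 134.5 CPM in control (132.5 to 136.5), 93.5 in Mll4SI (91.9 to 95.1), 47.97 in Mll3SI (46.8 to 49.2) and 45.7 in Mll3/4SI (44.6 to 46.8). Control stood 2.80-fold above Mll3SI and 2.94-fold above Mll3/4SI, log2 ratios of -1.47 and -1.54, and Mll4SI lay between at -0.52.

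Fam102b was the member with the opposite sign. It lies at chr3:108970997-109027607 on the minus strand. Its level was 20.2 CPM in control (19.4 to 20.99), 19.9 in Mll4SI (19.2 to 20.7), 32.6 in Mll3SI (31.6 to 33.6) and 34.6 in Mll3/4SI (33.6 to 35.5). Mll3SI and Mll3/4SI stood 1.61-fold and 1.71-fold above control, log2 ratios of 0.66 and 0.75, while Mll4SI differed from control by less than its counting interval (-0.02, from -0.09 to 0.06).

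**Figure D1:**
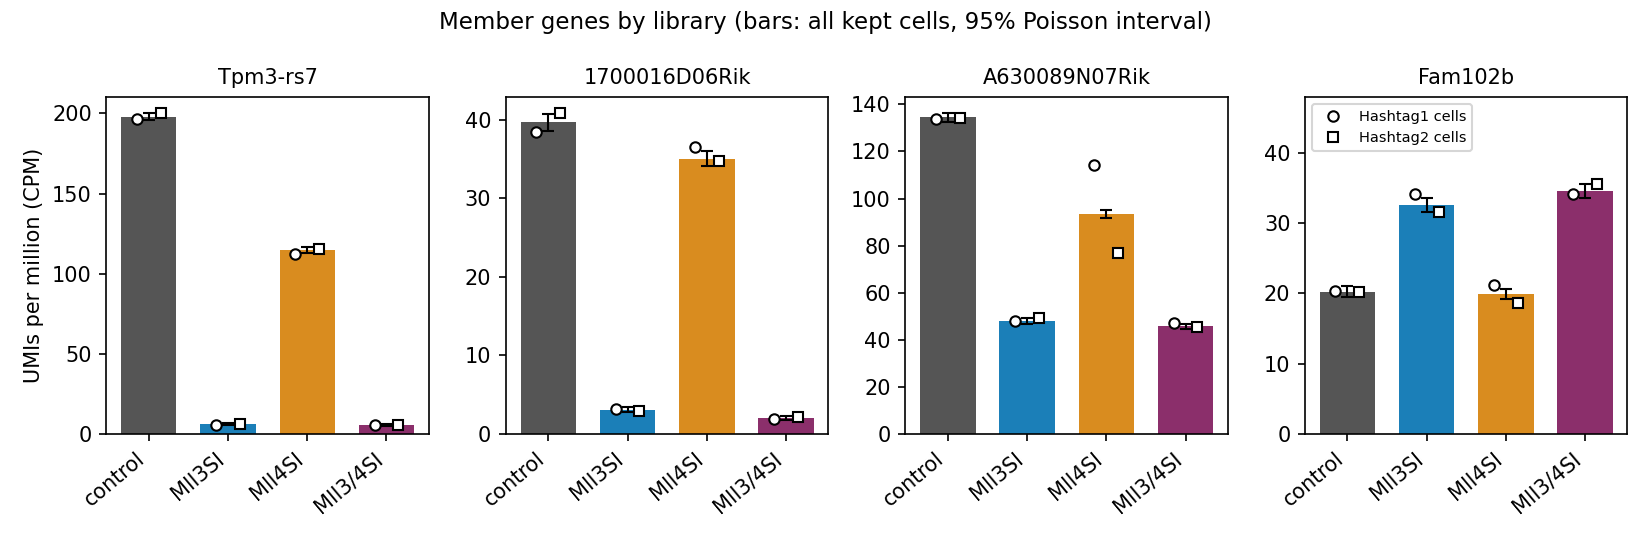
Level of each gene in the 4 libraries, in CPM on a linear axis from 0. Bars are all kept cells with their 95% Poisson interval, and open points are the cells carrying Hashtag1 or Hashtag2 alone. Both hashtag sets sit near their bar except for A630089N07Rik in Mll4SI, at 114.0 and 76.7 CPM.

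These sizes stand against a quiet background in Mll3SI and a busier one in Mll3/4SI. Of 12300 genes with a mean of at least 1 CPM, 40 (0.325%) were at least 2-fold lower in Mll3SI and 32 (0.26%) at least 2-fold higher, and 118 (0.959%) and 199 (1.62%) in Mll3/4SI. The members past that fold were 3 of 4, all lower, in each of these libraries. Since the genes were picked from these contrasts, nothing is read from that count. Fam102b did not reach 2-fold: 123 genes (1%) were at a log2 ratio of at least 0.5 in Mll3SI and 551 (4.48%) in Mll3/4SI. The choice did not use Mll4SI, but it did use the control to which Mll4SI is compared. In Mll4SI 0 of the 4 genes passed 2-fold, against 157 (1.28%) lower and 136 (1.11%) higher. At such low shares of all genes, nothing is read from that count either. The median ratio of all genes was -0.13 in Mll4SI, -0.02 in Mll3SI and -0.05 in Mll3/4SI. Median-of-ratios scaling moved the Mll4SI median to -0.02, so Mll4SI values are to be read against -0.13.

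Both contrasts share the control library, and 8 genes (0.065%) were at least 2-fold lower in both and 8 (0.065%) higher. Tpm3-rs7 had the lowest ratio of all 12300 genes in Mll3SI, and 2 genes were lower in Mll3/4SI. By the rule for further genes, past a log2 ratio of 2 in both and within 1 in Mll4SI, Gm49980 was named, a long non-coding RNA gene on chromosome 18. Gm49980 was at 2.90 CPM in control, 1.63 in Mll4SI, 15.2 in Mll3SI and 33.1 in Mll3/4SI. Other genes past 2-fold in both and within it in Mll4SI, chosen after their values were seen, were Rnf17, Ovgp1, Gm43305 and Caly on the higher side and Gm39204 and Ptprm on the lower side. Ptprm, a receptor tyrosine phosphatase gene, was at 6.01, 5.93, 0.948 and 1.49 CPM in control, Mll4SI, Mll3SI and Mll3/4SI. Gm39204 was at 2.90, 1.55, 0.00810 and 0.0211 CPM, with Mll4SI below control and above the others, as for Tpm3-rs7. In Mll3SI and Mll3/4SI it had no more than 3 UMIs, a level of 0.0243 and 0.0211 CPM. It passed the mean of 1 CPM only through control and Mll4SI. Rnf17, a Tudor-domain protein gene, was at 0.922, 1.39, 8.59 and 4.03 CPM. On the map, Gm39204 lies on chromosome 8 at chr8:78953926-79014119, away from 1700016D06Rik. Rnf17 (chr14:56402581-56525032) and Gm43305 (chr14:54292443-54297456) share chromosome 14 with Tpm3-rs7, and Ovgp1 (chr3:105973711-105987423) shares chromosome 3 with Fam102b.

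Counts of Tpm3 ran opposite to those of its copy. Tpm3 was at 270.2 CPM in control, 352.5 in Mll4SI, 462.1 in Mll3SI and 476.0 in Mll3/4SI, log2 ratios of 0.38, 0.77 and 0.81. The Mll3SI library held 191.9 CPM less of Tpm3-rs7 and 191.9 CPM more of Tpm3 than control. In Mll4SI the differences were 83.4 CPM less and 82.3 CPM more, and in Mll3/4SI 192.6 CPM less and 205.7 CPM more. The sum of both was 468.3 CPM in control (464.6 to 472.1), 467.2 in Mll4SI (463.7 to 470.7), 468.3 in Mll3SI (464.5 to 472.1) and 481.5 in Mll3/4SI (477.9 to 485.1). Over all kept cells, the summed level differed from control by log2 ratios of -0.004 in Mll4SI, -0.00004 in Mll3SI and 0.04 in Mll3/4SI. The interval of the sum in Mll3/4SI lay above that of control. The libraries differed more in how the sum was split. Tpm3-rs7 took 42.3% of the pair in control (41.9 to 42.7), 24.5% in Mll4SI (24.2 to 24.9), 1.32% in Mll3SI (1.22 to 1.41) and 1.14% in Mll3/4SI (1.07 to 1.23).

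**Figure D2:**
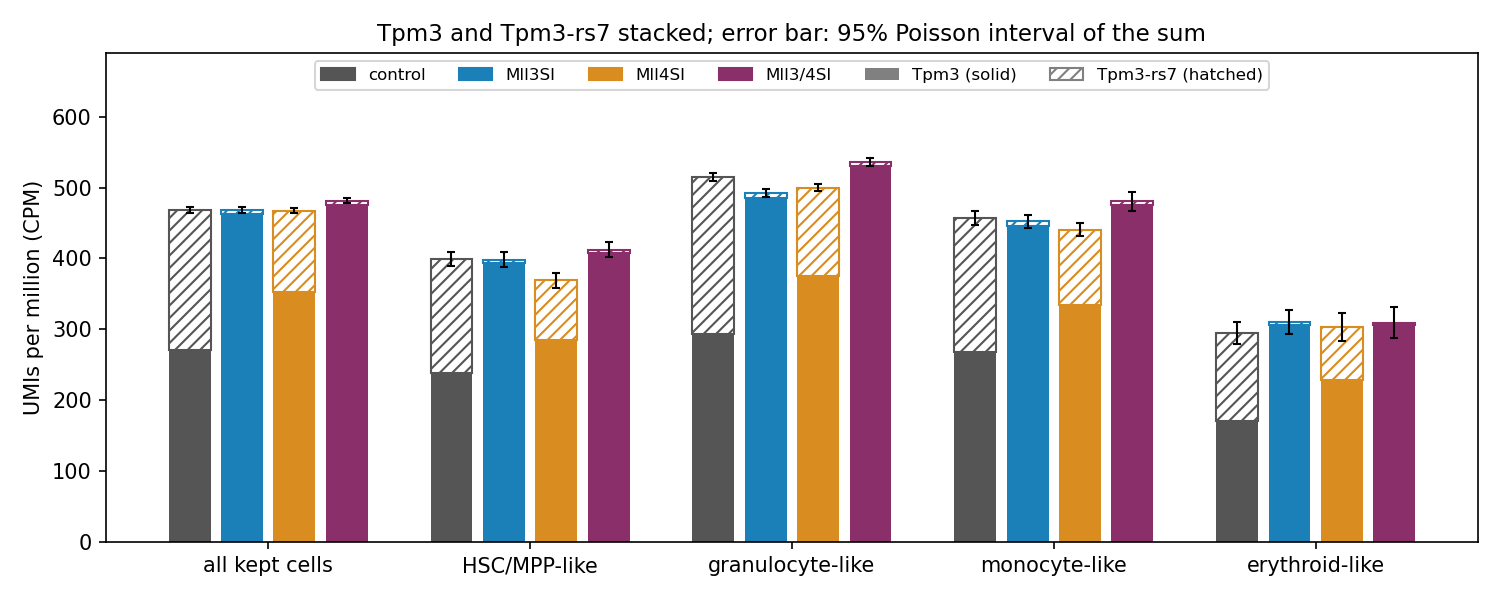
Tpm3 (solid) and Tpm3-rs7 (hatched) stacked, in CPM, for all kept cells and 4 cell classes, with the 95% Poisson interval of the sum. In all kept cells the totals lie between 467.2 and 481.5 CPM, while the hatched part spans 5.51 to 198.1 CPM.

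That split was similar across cell classes. In HSC/MPP-like cells Tpm3-rs7 took 40.4% of the pair in control, 22.8% in Mll4SI, 1.22% in Mll3SI and 1.11% in Mll3/4SI. In the same order, the shares were 43.1%, 24.8%, 1.34% and 1.21% in granulocyte-like cells, 41.4%, 24.1%, 1.32% and 1.19% in monocyte-like cells, and 42.3%, 24.8%, 1.06% and 1.29% in erythroid-like cells. In B-lymphoid-like cells, 37 to 183 per library, they were 47.3%, 23.9%, 1.21% and 1.30%, and the control share (interval 42.6% to 52.2%) was above that of HSC/MPP-like cells (39.2% to 41.6%). The summed level itself differed between classes, from 294.5 CPM in erythroid-like to 515.0 CPM in granulocyte-like control cells. It also differed between libraries within classes. In granulocyte-like cells, its interval was 509.5 to 520.4 CPM in control and 487.3 to 498.1 in Mll3SI. It was 495.5 to 504.6 CPM in Mll4SI and 530.6 to 542.1 in Mll3/4SI. In HSC/MPP-like cells, it was 390.1 to 409.2 CPM in control and 358.9 to 379.5 in Mll4SI. Of the other intervals in the classes above, only that of monocyte-like Mll3/4SI cells, which was higher, did not overlap control. Across clusters of at least 50 cells, the share ran from 37.1% to 50% in 19 control clusters and from 22.1% to 28.6% in 18 Mll4SI clusters. It ran from 0% (cluster 22, of low depth) to 1.60% in 18 Mll3SI clusters and from 0.620% to 1.49% in 21 Mll3/4SI clusters. The control and Mll4SI ranges did not overlap each other or those of the other libraries.

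The intermediate share of Mll4SI was also seen within single cells. Among cells with at least 10 UMIs of the pair, the median share of Tpm3-rs7 was 40% in 2644 control cells (quartiles 30% and 50%) and 23.5% in 2281 Mll4SI cells (16.7% and 30.8%). It was 0% in 1995 Mll3SI and 3272 Mll3/4SI cells. No Tpm3-rs7 UMI was found in 0.189% of such cells in control and 4.16% in Mll4SI, against 84.0% in Mll3SI and 84.7% in Mll3/4SI. In bins of 4 points, Mll4SI cells were most frequent at 20% to 24%, with 15.3% of them. The bin from 40% to 44% held 6.40% and the bin from 0% to 4% held 4.16%. Neighbouring bins were uneven, with 9.60% at 8% to 12% and 6.71% at 12% to 16%. Whether the Mll4SI cells were a mixture was not tested. The hashtag sets of Mll4SI had shares of 24.2% and 24.7%, and those of control 42.1% and 42.6%.

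**Figure D3:**
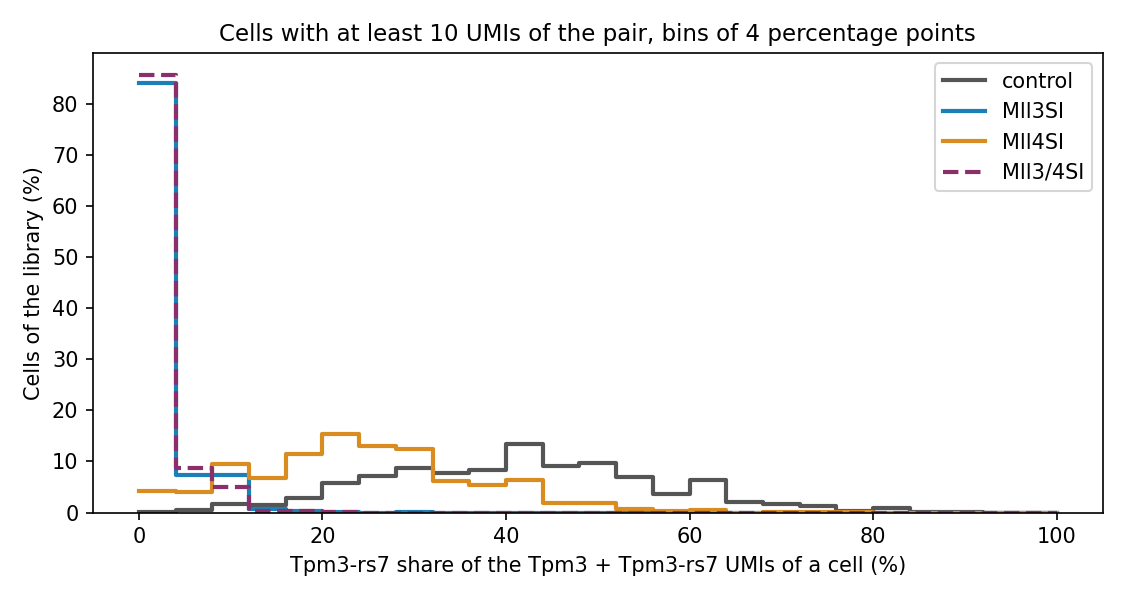
Share of Tpm3-rs7 in the pair's UMIs of a cell (x axis, percent, bins of 4 points) against the percent of cells of each library with at least 10 such UMIs (y axis). Mll4SI peaks in the bin from 20% to 24% with 15.3% of its cells and control in the bin from 40% to 44% with 13.4%, while Mll3SI and Mll3/4SI hold 84.2% and 85.7% of theirs in the lowest bin.

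In the libraries where Tpm3-rs7 was low, its UMIs were scattered over cells. A Tpm3-rs7 UMI was found in 93.2% of control, 74.1% of Mll4SI, 8.92% of Mll3SI and 10.7% of Mll3/4SI cells. Among the cells with a UMI, 94.1% in Mll3SI and 92.4% in Mll3/4SI had exactly 1, and no cell had more than 3, while 4361 control cells had 3 or more. With cells thinned to 3000 UMIs, which left out 118 to 226 shallower cells per library, the shares were 45.4%, 29.9%, 1.72% and 1.69%. In control, Mll4SI, Mll3SI and Mll3/4SI, 1700016D06Rik was found in 9.44%, 7.79%, 0.873% and 0.483% of thinned cells, and in 40.4%, 28.2%, 4.55% and 4.13% unthinned. A630089N07Rik was found in 24.0%, 14.3%, 10.6% and 10.8% of thinned cells, and in 56.8%, 35.8%, 36.3% and 40.3% unthinned. In control a UMI of it was found in 38.7% of granulocyte-like cells and 91.3% of HSC/MPP-like cells. Fam102b was found in 5.66%, 4.97%, 7.74% and 8.62% of thinned cells, and in 28.0%, 21.8%, 33.6% and 40% unthinned. None of the cell classes is known to lack these transcripts, so the share that free RNA gives was not measured.

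A 1700016D06Rik UMI was found somewhat more often in cells that also had a Tpm3-rs7 UMI. In Mll3SI a 1700016D06Rik UMI was found in 6.57% of the 715 cells with Tpm3-rs7 (cells of at least 3000 UMIs) and in 4.42% of the other cells, whose median depths were 15743 and 13550 UMIs. In Mll3/4SI the shares were 4.85% and 4.14%, at 21892 and 19090 UMIs. In control they were 41.7% and 30.4%, at 17375 and 12211 UMIs, and in Mll4SI 31.5% and 20.6%, at 13970 and 9212 UMIs. Within granulocyte-like cells they were 4.13% and 2.68% in Mll3SI and 1.92% and 1.75% in Mll3/4SI. The deeper cells thus had the higher share in each library, and the part of depth in it was not tested.

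Across the named cell classes, the log2 ratios of Tpm3-rs7 were of like size, and those of 1700016D06Rik varied more. In the named classes with at least 50 cells in control and in the library, Tpm3-rs7 ran from -4.87 to -4.77 in 5 classes of Mll3SI, from -0.93 to -0.72 in 4 of Mll4SI and from -4.90 to -4.65 in 4 of Mll3/4SI. 1700016D06Rik ran from -3.54 to -3.11 in Mll3SI and from -4.19 to -3.45 in Mll3/4SI. At its low levels in these libraries, the added 1 CPM shrinks the ratios. Over clusters of at least 50 cells in both, 1700016D06Rik ran from -3.88 to -2.54 in Mll3SI and from -4.58 to -2.04 in Mll3/4SI. Tpm3-rs7 ran there from -7.66 to -4.39 in Mll3SI, lowest in cluster 22 on 0 Mll3SI UMIs. In Mll3/4SI it ran from -5.43 to -4.30. In Mll4SI the sign of 1700016D06Rik differed by class, from -0.35 in granulocyte-like to 0.20 in monocyte-like cells.

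Of the 4 classes compared, 1700016D06Rik was lowest in granulocyte-like cells in each library. In control it was at 60.9 CPM in HSC/MPP-like, 60.2 in monocyte-like, 53.6 in erythroid-like and 25.4 in granulocyte-like cells. The corresponding values in Mll3SI were 4.33, 4.59, 4.04 and 2.06 CPM, and in Mll3/4SI 3.51, 2.36, 4.00 and 0.938 CPM. Within granulocyte-like cells, control cluster 5, led by the early granule genes Elane, Prtn3 and Ctsg, was at 64.7 CPM and cluster 0, led by Chil3 and the late granule genes Ltf and Camp, at 8.44 CPM. The Mll4SI levels were 67.0 CPM in HSC/MPP-like and 69.3 in monocyte-like cells, both above control, and 19.7 in granulocyte-like cells, below it. Granulocyte-like cells of Mll4SI and control sat mostly in different clusters, and the part of this in the ratio was not tested. Within clusters of at least 50 cells in both, the Mll4SI ratio was above 0 in 12 of 17 and below in 5. Its median there was 0.18.

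A630089N07Rik had a still steeper gradient over cell types. Control levels were 242.3 CPM in HSC/MPP-like, 210.9 in monocyte-like, 190.2 in erythroid-like and 68.5 in granulocyte-like cells. In Mll3SI they were 85.9, 75.9, 65.9 and 27.1 CPM, and in Mll3/4SI 94.98, 88.1, 60.4 and 17.0 CPM, so every one of these classes was at least 2-fold below control in both. In Mll4SI the levels were 221.8, 188.0, 173.1 and 42.3 CPM, log2 ratios of -0.13, -0.16, -0.13 and -0.68. The ratio of Mll4SI was thus lowest in granulocyte-like cells. In that class, Mll4SI and control cells sat mostly in different clusters, and the part of this in the ratio was not tested. Within clusters of at least 50 cells in both, the median ratio of Mll4SI was -0.20 over 17 clusters, against -1.35 over 18 clusters in Mll3SI and -1.43 over 17 in Mll3/4SI. Early cluster 5, for example, was at 158.8 CPM in control, 148.3 in Mll4SI, 61.4 in Mll3SI and 47.6 in Mll3/4SI.

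A630089N07Rik was also the member that differed most between the hashtag sets of Mll4SI. It was at 114.0 CPM (111.5 to 116.6) in Hashtag1 cells and 76.7 (74.6 to 78.9) in Hashtag2 cells. The same was seen within classes: 269.7 against 178.4 CPM in HSC/MPP-like, 215.5 against 148.3 in monocyte-like and 47.4 against 37.2 in granulocyte-like cells. The Hashtag1 value of HSC/MPP-like cells was above that of control Hashtag1 cells (230.6 CPM), and the Hashtag2 value was below that of control Hashtag2 cells (250.2 CPM). In all kept cells, the sets differed less in control (134.0 and 134.0 CPM), Mll3SI (47.9 and 49.0) and Mll3/4SI (46.9 and 45.5). Other members differed less between the sets of Mll4SI. Against control cells of the same hashtag, 1700016D06Rik had log2 ratios of -0.072 in Hashtag1 and -0.23 in Hashtag2 cells. Those of Fam102b were 0.055 and -0.11, and those of Tpm3-rs7 -0.80 and -0.79. The labels do not say what the hashtags marked.

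Fam102b differed by cell type, and in the granulocyte-like class the shared shift was not seen in both libraries. In HSC/MPP-like cells it was at 18.7 CPM in control, 24.7 in Mll4SI, 45.7 in Mll3SI and 48.03 in Mll3/4SI, so the log2 ratios were 0.38, 1.25 and 1.32. In the same order of libraries, monocyte-like cells were at 30.001, 30.1, 53.3 and 54.0 CPM, with ratios of 0.00, 0.81 and 0.83. Erythroid-like cells were at 8.29, 12.6, 16.9 and 12.4 CPM, on 31 to 67 UMIs per library, with ratios of 0.55, 0.95 and 0.53, and the intervals of Mll4SI and Mll3/4SI included 0. Granulocyte-like cells were at 19.9, 17.4, 26.0 and 20.01 CPM, with ratios of -0.18, 0.37 and 0.01. Cluster 12, whose cells came almost only from Mll3/4SI, was at 13.7 CPM. In early cluster 5 Fam102b was at 28.8 CPM in control, 33.2 in Mll4SI, 35.0 in Mll3SI and 38.0 in Mll3/4SI, and in late cluster 6 at 23.1 CPM in control, 27.3 in Mll3SI and 22.0 in Mll3/4SI, Mll4SI having 41 cells there. Among clusters of at least 50 cells in both, the highest ratio was in HSC/MPP-like cluster 10 in both libraries, 1.38 in Mll3SI and 1.68 in Mll3/4SI. The ratio was below 0 in 2 of 18 such clusters in Mll3SI, lowest at -0.68 in cluster 1, and in 4 of 17 in Mll3/4SI, lowest at -2.33 in cluster 22 on 4 control UMIs and 1 Mll3/4SI UMI. Both hashtag sets were above control in both libraries, with ratios of 0.62 to 0.79.

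**Figure D4:**
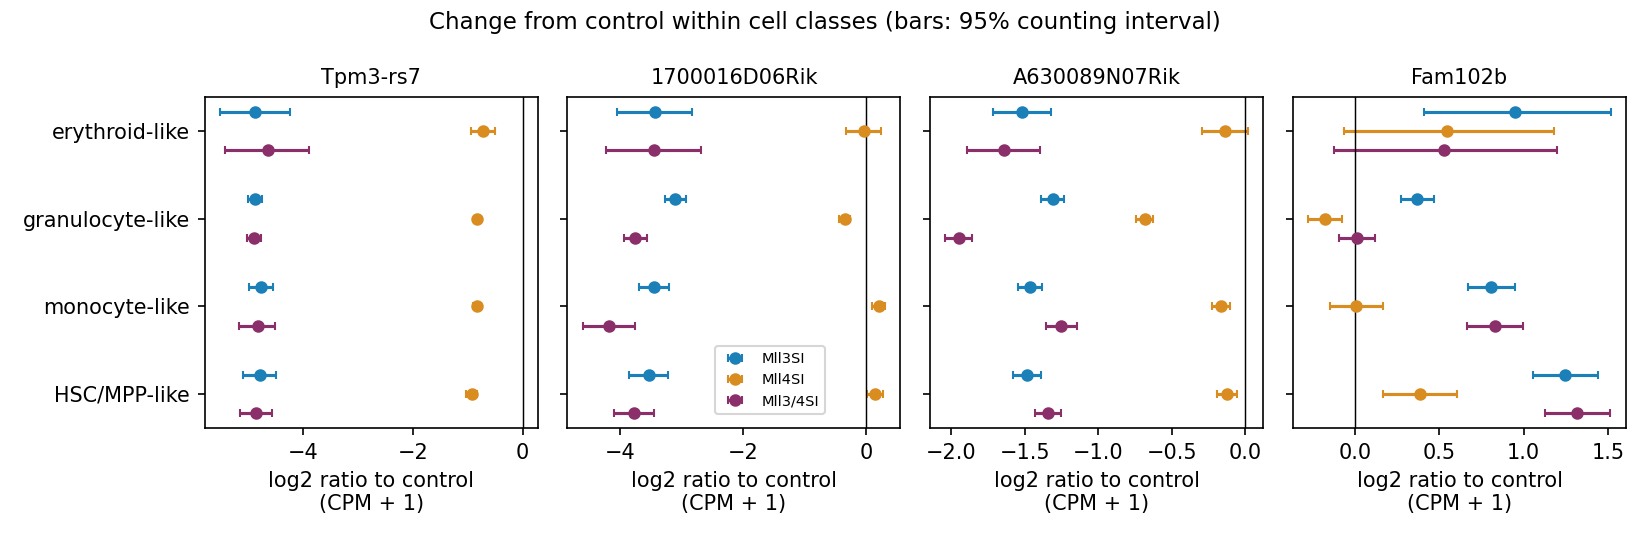
Log2 ratio to control of CPM + 1 (x axis) for each gene in 4 cell classes (y axis), with 95% counting intervals, for Mll3SI, Mll4SI and Mll3/4SI. Tpm3-rs7 and 1700016D06Rik lie below -3 in each class shown for Mll3SI and Mll3/4SI, while Fam102b runs from 0.01 in granulocyte-like to 1.32 in HSC/MPP-like Mll3/4SI cells.

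Counted genes near the members on the chromosome differed by less than 2-fold. No other annotated gene lay within 250 kb of Tpm3-rs7. Of 16 genes within that distance of 1700016D06Rik, 6 passed the level of 1 CPM, and their ratios ran from -0.18 to 0.15 in Mll3SI and from -0.27 to -0.06 in Mll3/4SI. Its nearest counted neighbour, Ankrd10, was at 66.0, 48.7, 72.9 and 55.1 CPM in control, Mll4SI, Mll3SI and Mll3/4SI. Near A630089N07Rik 4 of 6 genes passed, with ratios from -0.24 to 0.07 in Mll3SI and from -0.09 to 0.10 in Mll3/4SI. These included B230307C23Rik, which overlaps A630089N07Rik on the other strand and was at 25.9, 20.6, 21.8 and 24.6 CPM. Near Fam102b 5 of 12 passed, with ratios from -0.23 to -0.02 and from -0.22 to -0.04. None of these 15 genes was past 2-fold in any of the 3 libraries, Mll4SI included, where Gm19391 near Fam102b had the highest ratio, 0.88.

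Promoters, here 250 bases before to 50 after the RefSeq start on GRCm38.p6, were in the table for 3 of the 4 genes and are shown because these genes differed together. For 1700016D06Rik the RefSeq window lies inside the gene as GENCODE places it (chr8:11654924-11701063). It is thus not the window at the GENCODE start, which was not examined. Capitals mark each match to CCAAT on either strand.
1700016D06Rik, chr8:11678700-11678999, minus strand: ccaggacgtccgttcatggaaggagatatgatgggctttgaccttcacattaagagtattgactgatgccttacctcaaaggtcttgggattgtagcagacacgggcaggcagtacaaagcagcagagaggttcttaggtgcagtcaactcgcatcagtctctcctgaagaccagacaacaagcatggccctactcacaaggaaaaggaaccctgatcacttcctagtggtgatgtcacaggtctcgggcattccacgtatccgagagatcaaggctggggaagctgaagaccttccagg
A630089N07Rik, chr16:98082390-98082689, minus strand: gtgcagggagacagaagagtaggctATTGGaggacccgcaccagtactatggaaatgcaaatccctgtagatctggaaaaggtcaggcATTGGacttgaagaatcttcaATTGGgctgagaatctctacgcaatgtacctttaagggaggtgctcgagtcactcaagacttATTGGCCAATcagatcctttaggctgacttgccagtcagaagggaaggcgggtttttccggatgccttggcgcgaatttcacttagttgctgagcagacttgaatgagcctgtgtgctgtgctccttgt
Fam102b, chr3:109027558-109027857, minus strand: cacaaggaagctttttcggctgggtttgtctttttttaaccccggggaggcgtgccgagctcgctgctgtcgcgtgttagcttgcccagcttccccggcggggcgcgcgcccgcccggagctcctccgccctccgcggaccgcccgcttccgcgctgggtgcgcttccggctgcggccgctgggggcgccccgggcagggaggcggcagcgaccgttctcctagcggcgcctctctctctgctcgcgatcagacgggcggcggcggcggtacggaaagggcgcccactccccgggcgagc

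Searched on both strands, CCAAT occurred 5 times in the window of A630089N07Rik and in neither of the others, against a match in 37.4% of 32851 promoters of that length. TATAAA (13.6% of promoters), CCGGAAGT (3.89%) and AGATAA (11.2%) occurred in none of the 3 windows. Fam102b had 43 CpG dinucleotides and 73.3% G and C bases, more CpGs than 97.4% of promoters. 1700016D06Rik and A630089N07Rik each had 7 CpGs, the median of all promoters. None of the 4 motifs searched was common to the 3 windows, and the letters describe these windows only.

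Relatives and partners of the members were taken from fixed lists. Of 18 tropomyosin and thin-filament genes, 13 were counted and 0 passed 2-fold in any library, and their median ratios were 0.19 in Mll4SI, -0.02 in Mll3SI and 0.00 in Mll3/4SI. The other tropomyosins were low: in control, Mll4SI, Mll3SI and Mll3/4SI, Tpm1 was at 20.7, 14.0, 19.2 and 21.8 CPM and Tpm4 at 16.4, 11.7, 20.2 and 9.56 CPM. The highest ratio of this list in Mll3SI and in Mll3/4SI was that of Tpm3 itself. Of 10 genes of the Fam102 family and RANK signalling, 9 were counted, and 1 passed 2-fold, Fos in Mll3/4SI (1.36), an immediate early transcription factor gene. Fam102a, the paralog of Fam102b, was at 7.77, 5.89, 7.16 and 5.51 CPM. Its ratio was -0.10 in Mll3SI, with an interval of -0.22 to 0.01 that includes 0, and -0.43 in Mll3/4SI. Of 6 MLL3 and MLL4 complex genes, 5 were counted and 0 passed 2-fold, with medians of 0.14, -0.07 and -0.08 in Mll4SI, Mll3SI and Mll3/4SI. Of the 5 sex-linked genes, 0 passed 2-fold in Mll3SI, and 4 were lower and Xist higher past it in Mll4SI and in Mll3/4SI.

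The genes most like each member were taken by the Pearson correlation of log2(CPM + 1) over 18 pairs of library and cell class, which share libraries and are no independent samples. The members were chosen for differing alike in these libraries, so a high value between members restates that choice. For Tpm3-rs7 they were 1700016D06Rik (0.92), Gm39204 (0.90) and 5830444B04Rik (0.77). For 1700016D06Rik they were Gm39204 (0.94), Tpm3-rs7 (0.92) and 5830444B04Rik (0.83). The gene 5830444B04Rik was at 2.62, 3.92, 0.956 and 0.274 CPM in control, Mll4SI, Mll3SI and Mll3/4SI. For A630089N07Rik they were Gm47283 (0.94), Zfp277 (0.93) and Pink1 (0.92), and for Fam102b Tmem141 (0.91), Cd68 (0.90) and Slc4a8 (0.89). In the same order, Zfp277 was at 25.01, 22.5, 17.8 and 19.1 CPM and Pink1, a mitochondrial kinase gene, at 18.8, 15.7, 13.1 and 13.7 CPM. Tmem141 was at 11.5, 9.45, 14.1 and 13.6 CPM and Cd68, a macrophage lysosomal protein gene, at 5.34, 3.76, 6.50 and 9.97 CPM. Gm47283 was at 184.7, 236.1, 112.97 and 90.6 CPM, above control in Mll4SI, where A630089N07Rik was below it. Slc4a8 was at 20.1, 7.32, 20.96 and 10.2 CPM, below control in Mll3/4SI, where Fam102b was above it.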

How the data were processed

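The deposited values were UMI counts per gene or antibody and cell barcode. Per the submitters' processing notes they were made with Cell Ranger 7.1.0 on mm10, and cell-calling settings are not given in the sources used here. Of 32285 gene IDs, 32158 were found in GENCODE M21.

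Cells were kept with at least 500 genes, 1000 UMIs and at most 10% mitochondrial UMIs. Scrublet scores removed 409, 594, 1001 and 411 doublets from control, Mll3SI, Mll4SI and Mll3/4SI, at 0.8% per 1000 cells. Cells past both hashtag thresholds (128 and 321 UMIs, set after seeing the data) were still 2.24% to 5.51% of kept cells. Library totals were 123467962 to 146807326 UMIs over kept cells. Libraries were clustered jointly with scanpy 1.11.5 (2000 variable genes, 30 components, 15 neighbours, Leiden resolution 1), leaving out members, markers and listed genes. A cluster was named with at least 3 markers at a log2 fold of 1 and a lead of 2, and 9 clusters stayed unnamed. Names rebuilt this way need not match those the submitters used. Doublets were removed before clustering.

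UMIs were summed over cells and scaled to CPM. Counts have exact Poisson intervals, shares of cells exact Clopper-Pearson intervals and ratios exact conditional ones, at 95%. Python 3.11.15, numpy 2.4.6, scipy 1.17.1 and pandas 2.3.3 were used. The members and lists were chosen with earlier results of these data known. Genes named in the text are the members, the listed genes, counted genes within 250 kb of a member, the 3 most correlated genes of each member, and up to 5 genes per direction past a log2 ratio of 2 in both Mll3SI and Mll3/4SI and within 1 in Mll4SI. Rnf17, Ovgp1, Gm43305, Caly, Gm39204 and Ptprm were added after their values were seen. Sequences come from GENCODE M21 transcripts (GRCm38) and RefSeq promoters (GRCm38.p6). Other cell filters, scalings, added constants, hashtag sets, class weights, resolutions and level filters were tried.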

Additional observations from a re-analysis of the deposited data

How the results depend on the processing

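No paired analysis was possible because each group has 1 library. Without replicates, all limits are of counting. Of 120 recomputed ratios of the members in all kept cells, 76 stayed within the counting interval and 43 moved outside it. Another 1 moved outside it with a changed sign where the interval itself excluded 0. Sign changes of ratios whose interval includes 0 are counted among the 76 and the 43. In all, 4 of the 120 changed sign, each of them in Mll4SI: 1 for 1700016D06Rik and 3 for Fam102b, whose own interval includes 0. For the Mll4SI to control ratio, median-of-ratios scaling gave -0.67 for Tpm3-rs7, -0.063 for 1700016D06Rik, -0.41 for A630089N07Rik and 0.092 for Fam102b, and -1.47 for A630089N07Rik in Mll3/4SI. With 0.1 CPM added, Tpm3-rs7 was at -4.98 in Mll3SI and -5.14 in Mll3/4SI, and 1700016D06Rik at -3.65 and -4.21. With 10 CPM added, these were -3.69, -3.75, -1.93 and -2.04, Tpm3-rs7 in Mll4SI -0.74, A630089N07Rik -0.48 in Mll4SI, -1.32 in Mll3SI and -1.37 in Mll3/4SI, and Fam102b 0.50 in Mll3SI and 0.56 in Mll3/4SI. The unweighted mean over named classes gave -5.02 and -0.88 for Tpm3-rs7 in Mll3SI and Mll4SI, -3.60, 0.19 and -3.86 for 1700016D06Rik, -0.19 and -1.44 for A630089N07Rik in Mll4SI and Mll3/4SI, and 0.83, 0.12 and 0.61 for Fam102b. With each cell weighing the same, 1700016D06Rik was at -0.34 in Mll4SI and -3.62 in Mll3/4SI, A630089N07Rik at -0.75 and -1.48, and Fam102b at 0.56, -0.15 and 0.64 in Mll3SI, Mll4SI and Mll3/4SI. In Mll4SI, Hashtag1 and Hashtag2 cells gave -0.072 and -0.23 for 1700016D06Rik and -0.23 and -0.80 for A630089N07Rik, and Hashtag2 cells -0.11 for Fam102b. Hashtag1 cells gave -1.49 for A630089N07Rik in Mll3/4SI. For A630089N07Rik in Mll4SI, all deposited barcodes gave -0.56 and removal of cells with both hashtags -0.48. The cause of these moves was not tested.

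Within classes, 91 of 96 recomputed ratios stayed within the counting interval. Among genes of at least 10 CPM, 44 were at least 2-fold lower and 48 higher in Mll4SI, 18 and 8 in Mll3SI, and 52 and 69 in Mll3/4SI, where fewer genes were tested. In alternatives added after seeing the data, the share of Tpm3-rs7 in the pair in Mll4SI Hashtag1 cells was 24.2%. The summed level of the pair was at -0.024 and 0.018 in the hashtag sets of Mll3SI, and at 0.090 and -0.014 in those of Mll3/4SI. Median-of-ratios scaling put it at 0.11 in Mll4SI and in Mll3/4SI. These ratios of the sum took either sign in each library, with 5 of 15 recomputed ones on the other side of 0.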
